A study of Danio rerio with 8 samples.

Results

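The genes described here had transcripts that were abundant in the zebrafish gastrula and nearly gone 1 day after fertilisation. This held in cells sorted as germ cells and in those sorted from the rest of the embryo. They were selected on their measured levels: 20 CPM (a gene's expected count as a share of the library total, on the usual counts-per-million scale) or more in all 4 libraries at 7 hours post fertilisation (hpf), and a mean at 24 hpf of at most 1/16 of the mean at 7 hpf, in primordial germ cells (PGCs) and separately in soma. Of 34381 genes in the table, 4438 reached the floor of 20 CPM in all 4 libraries of 7 hpf, and 47 of these met both limits on the fall. The rule leaves out 4 gene IDs by name, of which pou5f3 and nanog had met the limits, so that the set holds 45 genes. Because the levels at both stages chose the members, their falls between the stages are given as a description. The comparison of PGCs with soma at the same stage was not used in the selection and was tested.

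The study sorted PGCs, the precursors of eggs and sperm, and somatic cells by fluorescence from the transgenic line kop-EGFP-F'-nos3'UTR-cry-DsRed, in which green fluorescence marks the germ line. All 4 groups came from this line: PGC at 24 hpf, PGC at 7 hpf, soma at 24 hpf and soma at 7 hpf, with 2 RNA-seq libraries each and 8 in all. The libraries of a group were biologically independent replicates by the study's description, and the p-values measure the spread between these 2 libraries per group. In sorted pools like these, fewer cells of a type and less RNA per cell cannot be told apart. Libraries held 6997561 to 21073240 expected counts, and 3 counts, the floor used here, corresponded to between 0.142 and 0.429 CPM. The 11 germ cell markers that were checked summed to 637 and 433 CPM in PGCs and 8.19 and 12.6 CPM in soma at 24 hpf, and to 6631 and 9101 CPM in PGCs and 229 and 114.05 CPM in soma at 7 hpf. At 24 hpf the libraries labelled PGC also held markers of differentiated somatic tissue, and 4 muscle genes summed to 13040 and 20195 CPM in PGCs and 1410 and 15121 CPM in soma. These muscle sums overlapped between PGCs and soma. The sums of 5 blood markers were lower in PGCs, at 71.3 and 66.6 CPM against 348 and 222 CPM in soma. The sums of 5 neural genes overlapped at 478 and 349 CPM in PGCs and 467 and 417 CPM in soma. At 24 hpf 6 epidermis genes summed to 3914 and 7949 CPM in PGCs and 9894 and 8032 CPM in soma. Notochord and connective tissue genes overlapped. At 7 hpf the epidermis genes summed to 12730 and 6193 CPM in PGCs and 779.7 and 2559 CPM in soma. This sum does not stand for each of the 6. By the threshold given below, 0 of them were higher in PGCs and 1 was lower. That was tp63, with means of 11 CPM in PGCs and 40.4 CPM in soma. The other genes on the epidermis list had positive log2 fold changes at 7 hpf, between 1.19 (epcam) and 2.285 (cyt1), and did not pass. Neural genes (77.5 and 54.6 against 308 and 247 CPM) and muscle genes lay lower in PGCs at 7 hpf. At both stages the libraries labelled PGC are therefore described as such, and their values below stand for the sorted pool.

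At gastrulation the embryo lays down its axes and germ layers. Nodal ligands acting through a co-receptor and Smad proteins induce mesoderm and endoderm, while a gradient of Bmp activity, shaped by secreted antagonists from the dorsal organiser, sets dorsal and ventral fates. Transcripts present at this stage come from the maternal store or from the newly active embryonic genome, and these libraries do not tell these sources apart. PGCs are set aside early by inherited germ plasm and migrate to the gonad while the somatic cells differentiate.

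The 45 members together took 0.0178% and 0.0137% of the counts in PGCs at 24 hpf, against 0.782% and 0.594% in PGCs at 7 hpf. In soma they took 0.0247% and 0.013% at 24 hpf, against 1.24% and 1.06% at 7 hpf. By this sum every 24 hpf library lay far below every 7 hpf library. The median log2 ratio of 24 over 7 hpf, from mean CPM, was -5.42 in PGCs and -5.88 in soma for the members, and -1.35 and -1.15 for the 4438 genes at the floor. In PGCs the smallest fall was 16.6-fold and the median 42.9-fold, and 9 members fell 100-fold or more. In soma the smallest was 17.5-fold and the median 58.9-fold, 15 members fell 100-fold or more, and szl had no counts left. Fold values between the stages here and below are by plain CPM. Those with a counting interval set the mean CPM at 7 hpf against the pooled counts of both 24 hpf libraries. They differ somewhat from ratios of group means. The most abundant gene took 17.6% to 20.5% of the counts in the 24 hpf libraries and 0.984% to 1.67% in those of 7 hpf. A larger share for 1 gene lowers the plain CPM of the others, and its part in the falls was not tested. On the TMM-scaled edgeR values the falls were smaller, with member medians of -4.70 in PGCs and -5.73 in soma on the log2 scale. The smallest falls were then -3.33 and -3.98. The floor genes had medians of -0.66 in PGCs and -0.93 in soma, so the order of the cell types depended on the scale. In the edgeR fit 45 of 45 members were lower at 24 hpf in each cell type, where 6.94% of all tested genes were lower in PGCs and 9.89% in soma. These counts repeat the selection and nothing is read from them.

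**Figure D1:**
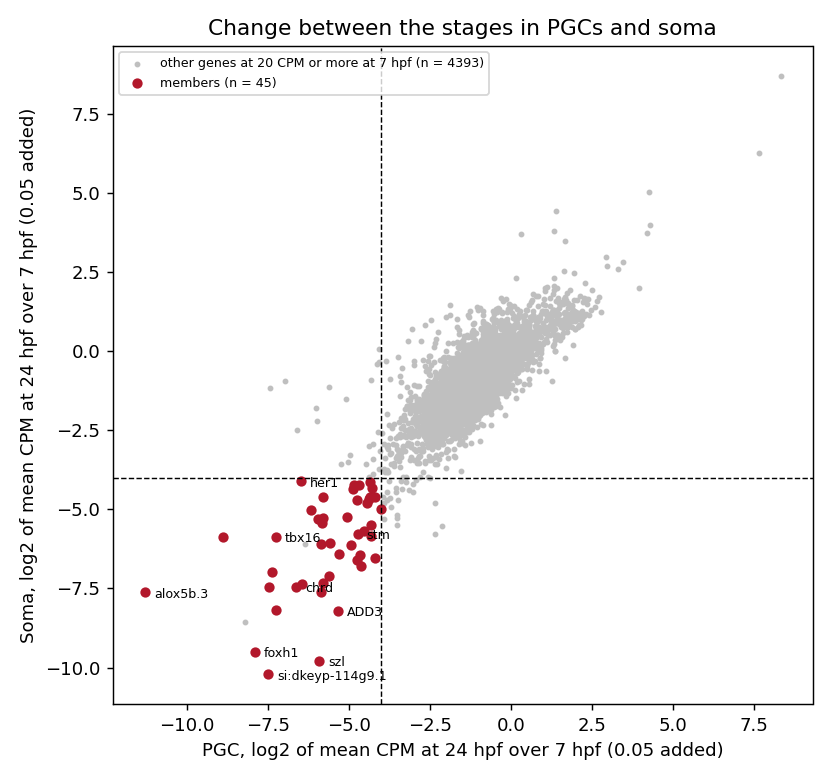
Log2 ratio of mean CPM at 24 over 7 hpf in PGCs (horizontal) and soma (vertical), with 0.05 CPM added to every mean, for the 4438 genes at 20 CPM or more in all 7 hpf libraries. Red points are the 45 members, dashed lines mark the limit of 1/16, and the 2 grey points within both limits and clear of the lines are pou5f3 and nanog, which the rule leaves out.

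At the edge of the selection, her1 fell 17.5-fold in soma and wu:fi42e03 16.6-fold in PGCs, just past the limit of 16-fold. Just short of it were cdx4, a posterior homeobox gene that fell 15.8-fold in soma, and si:zfos-905g2.1, which fell 15.6-fold in PGCs. On the 7 hpf floor the lowest libraries of zgc:173556 and si:ch211-173m16.2 had 20.4 and 22 CPM, while those of admp, a Bmp-like ligand of the organiser, and si:dkey-90l23.1 had 19.9 and 18.5 CPM and were left out.

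Clearing was deep but seldom complete. At 24 hpf 33 of the 45 members had more than 3 counts in all 4 libraries, 12 had 3 counts or fewer in at least 1 of them, and 0 had no counts in all 4. The mean was under 1 CPM for 11 members in PGCs and for 12 in soma, and it was 5 CPM or more for 5 members in PGCs and 10 in soma. The name of the set, transcripts cleared by 24 hpf, therefore describes a fall to a low level, and the absence of a transcript was not measured for any member.

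**Figure D2:**
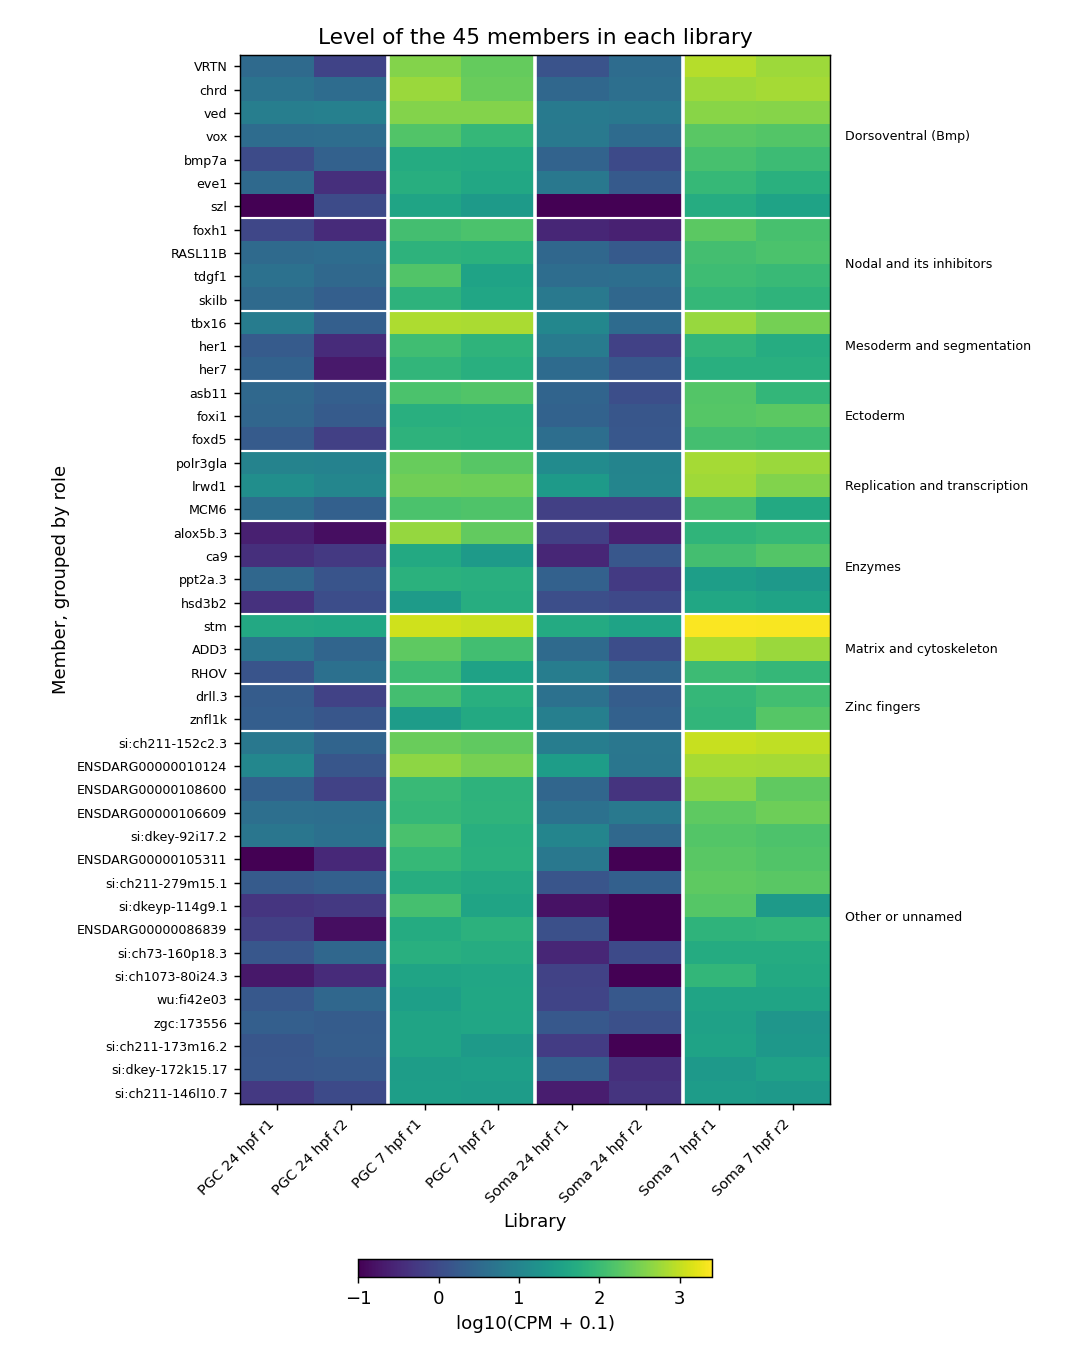
Level of each of the 45 members (rows, grouped by role) in each of the 8 libraries (columns, r1 and r2 being the replicates), as log10 of CPM with 0.1 added. The 7 hpf columns are bright in every row, and stm stays the brightest row at 24 hpf.

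The axis-patterning genes around Bmp formed the largest named group, with 7 members. chrd encodes Chordin, the antagonist that binds Bmp ligands outside the cell, and measured 4.56 and 3.48 CPM in PGCs at 24 hpf, against 557 and 251 CPM in PGCs at 7 hpf, and 2.81 and 3.99 CPM in soma at 24 hpf, against 569.9 and 636 CPM in soma at 7 hpf. bmp7a encodes one of the ligands and measured 0.902 and 2.27 CPM in PGCs at 24 hpf, against 49.9 and 49.6 CPM in PGCs at 7 hpf, and 2.43 and 0.881 CPM in soma at 24 hpf, against 134 and 102 CPM in soma at 7 hpf. szl encodes Sizzled, a secreted inhibitor of the protease that cuts Chordin, and measured 0 and 0.918 CPM in PGCs at 24 hpf, against 37.2 and 24.7 CPM in PGCs at 7 hpf, and 0 and 0 CPM in soma at 24 hpf, against 52.3 and 35.9 CPM in soma at 7 hpf. For all 3 secreted factors the libraries of both stages lay apart, and for szl the remnant was 0.918 CPM in a single PGC library.

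With a floor of 3 counts per library, szl was at least 254-fold lower at 24 than at 7 hpf in soma. ved and vox encode homeobox repressors that keep dorsal genes out of the ventral side. ved measured 7.64 and 8.21 CPM in PGCs at 24 hpf, against 385 and 387 CPM in PGCs at 7 hpf, and 6.52 and 5.75 CPM in soma at 24 hpf, against 417 and 401 CPM in soma at 7 hpf. Its PGC libraries lay just below those of soma at 7 hpf and just above them at 24 hpf. vox measured 3.56 and 3.62 CPM in PGCs at 24 hpf, against 159 and 83.6 CPM in PGCs at 7 hpf, and 5.88 and 3.42 CPM in soma at 24 hpf, against 192 and 167 CPM in soma at 7 hpf. At 7 hpf vox also lay lower in PGCs, without overlap.

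eve1, a ventral and posterior homeobox gene, was 30.1-fold lower at 24 than at 7 hpf in PGCs and 20.8-fold lower in soma. VRTN, which in zebrafish represses a Bmp ligand gene, measured 3.27 and 0.676 CPM in PGCs at 24 hpf, against 389.7 and 226 CPM in PGCs at 7 hpf, and 1.22 and 3.52 CPM in soma at 24 hpf, against 821 and 579.7 CPM in soma at 7 hpf. Its falls were 156-fold in PGCs and 296-fold in soma, the deepest of these 7 members except for szl in soma. Across these 7 members the log2 fold change of PGCs over soma at 7 hpf was negative in 7 and ran between -1.69 for bmp7a and -0.52 for ved, and 0 of them passed the threshold. At an adjusted p of 0.0615 (edgeR quasi-likelihood test), bmp7a came nearest, and it passed with DESeq2.

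Nodal signalling was represented by a co-receptor, a transcription factor and a pair of modulators. tdgf1, the co-receptor known as one-eyed pinhead, measured 4.22 and 2.95 CPM in PGCs at 24 hpf, against 159.6 and 35.7 CPM in PGCs at 7 hpf, and 3.71 and 3.84 CPM in soma at 24 hpf, against 106 and 94.6 CPM in soma at 7 hpf. Its PGC libraries at 7 hpf lay on both sides of the soma ones. foxh1, the forkhead partner of Smad2, measured 0.759 and 0.242 CPM in PGCs at 24 hpf, against 124 and 141 CPM in PGCs at 7 hpf, and 0.192 and 0.155 CPM in soma at 24 hpf, against 194 and 129 CPM in soma at 7 hpf. With 6 counts left in soma it was 939.6-fold lower at 24 hpf there (95% counting interval 431.7 to 2560.3, exact Poisson on the 24 hpf counts).

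skilb, of the Ski and SnoN family of Smad co-repressors, was 20.5-fold lower at 24 than at 7 hpf in PGCs and 17.9-fold lower in soma. RASL11B, a Ras-like GTPase that in zebrafish modifies the effect of losing the co-receptor, measured 71.0 and 63.7 CPM in PGCs at 7 hpf and 121 and 142 CPM in soma at 7 hpf. The groups did not overlap, and the log2 fold change was -1.40 ± 0.28 (SE), below the limit of 1.5 although the adjusted p was 0.0234 (edgeR quasi-likelihood test).

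Mesoderm and segmentation were represented by 3 members, which in the edgeR fit were among those least different between the cell types at 7 hpf. By mean CPM all 3 were higher in PGCs at 7 hpf, tbx16 1.71-fold, her1 1.42-fold and her7 1.15-fold. tbx16, the T-box factor spadetail needed for mesodermal cells to move, measured 7.07 and 2.03 CPM in PGCs at 24 hpf, against 713 and 691 CPM in PGCs at 7 hpf, and 10.6 and 3.32 CPM in soma at 24 hpf, against 525 and 296 CPM in soma at 7 hpf. PGCs had the higher values at 7 hpf without overlap, but the log2 fold change was 0.32 ± 0.54 (SE) with an adjusted p of 0.779 (edgeR quasi-likelihood test). her1 and her7 encode Notch-driven repressors of the segmentation clock and are neighbouring genes in the RefSeq annotation, the only adjacent pair among the 33 members matched to it. her1 measured 1.71 and 0.242 CPM in PGCs at 24 hpf, against 111 and 73.3 CPM in PGCs at 7 hpf, and 6.78 and 0.622 CPM in soma at 24 hpf, against 77.3 and 52.2 CPM in soma at 7 hpf. her7 measured 2.28 and 0.0966 CPM in PGCs at 24 hpf, against 78.3 and 59.4 CPM in PGCs at 7 hpf, and 3.33 and 1.45 CPM in soma at 24 hpf, against 60.6 and 58.9 CPM in soma at 7 hpf. In all 3 genes the first library of each cell type at 24 hpf was the higher one, as it was for 80% of the 4438 floor genes in PGCs and 88.9% in soma.

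Of the ectodermal factors, foxi1, a forkhead gene of the epidermis and ear placode, measured 2.70 and 1.74 CPM in PGCs at 24 hpf, against 59.2 and 62.5 CPM in PGCs at 7 hpf, and 2.3 and 1.40 CPM in soma at 24 hpf, against 171 and 197 CPM in soma at 7 hpf. foxd5, a forkhead gene of the early neural plate, was 58.8-fold lower at 24 than at 7 hpf in PGCs and 43.7-fold lower in soma. asb11, whose product acts on Notch signalling in neural progenitors in zebrafish, was 59.4-fold lower at 24 than at 7 hpf in PGCs and 70.8-fold lower in soma. Only foxi1 of these 3 passed the threshold between PGCs and soma at 7 hpf.

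The most abundant member was stm, the gene of Starmaker, a matrix protein known from the otoliths of the ear. It measured 44.9 and 42.2 CPM in PGCs at 24 hpf, against 1231 and 1079.8 CPM in PGCs at 7 hpf, and 49.5 and 35.6 CPM in soma at 24 hpf, against 2411 and 2255 CPM in soma at 7 hpf. It also left the highest remnant in every 24 hpf library, where the PGC and soma libraries overlapped. lrwd1, a partner of the origin recognition complex, measured 14.6 and 10.2 CPM in PGCs at 24 hpf, against 275 and 269 CPM in PGCs at 7 hpf, and 24.9 and 10.1 CPM in soma at 24 hpf, against 599 and 370.0 CPM in soma at 7 hpf, and polr3gla, a subunit of RNA polymerase III, left 9.30 and 8.74 CPM in PGCs and 13.4 and 9.59 CPM in soma at 24 hpf. With ved and an unnamed gene, ENSDARG00000010124, these were the 5 highest remnants in PGCs by the mean of both libraries, and tbx16 took the place of ved in soma. ENSDARG00000010124 measured 10.7 and 1.40 CPM in PGCs at 24 hpf, and in the second soma library tbx16, at 3.32 CPM, lay below ved, at 5.75 CPM, so that these places rested on the first library.

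At the low end, alox5b.3, of the arachidonate 5-lipoxygenase family, had 3 and 1 counts left in PGCs at 24 hpf. It measured 0.142 and 0.0483 CPM in PGCs at 24 hpf, against 510.3 and 222 CPM in PGCs at 7 hpf, and 0.576 and 0.155 CPM in soma at 24 hpf, against 75.1 and 88.2 CPM in soma at 7 hpf. The fall in PGCs was 3824-fold, with a counting interval of 1493 to 14034. si:dkeyp-114g9.1, which has no assigned role, kept 1 count in the pair of 24 hpf soma libraries and was 3402-fold lower there, with a counting interval of 611 to 134361. Its 7 hpf libraries were themselves uneven, at 128 and 36.4 CPM in PGCs and 170.3 and 24.5 CPM in soma. In all, 1 member was at 3 counts or fewer in both 24 hpf PGC libraries (alox5b.3), and 3 were in both soma libraries (foxh1, si:dkeyp-114g9.1 and szl).

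The other named members were ca9 (a carbonic anhydrase), hsd3b2 (a steroid dehydrogenase), ppt2a.3 (a thioesterase), ADD3 (an adducin of the spectrin and actin skeleton), RHOV, MCM6 (a subunit of the replicative helicase) and the zinc finger genes drll.3 and znfl1k. Their falls ran between 21.5-fold (znfl1k) and 99-fold (ca9) in PGCs and between 18.8-fold (RHOV) and 301-fold (ADD3) in soma. The symbols MCM6 and ADD3 each belong to more than 1 ID in the name table, and the members are ENSDARG00000033231 and ENSDARG00000056250. The remaining 16 members carried only clone names or, for 5 of them, only an ID. Among these 16 the log2 fold change of PGCs over soma at 7 hpf ran between -2.57 and 0.06, was negative in 15 and passed the threshold in 3. In TPM, the deposited abundance per transcript length, mean levels at 7 hpf ran between 3.5 (znfl1k) and 217 (ved) in PGCs, with a median of 26.3, and between 4.33 (si:ch73-160p18.3) and 944 (si:ch211-152c2.3) in soma, with a median of 45.3. Per unit length, ved was thus the most abundant in PGCs, where stm led by counts. The median effective length was 1690 bases for members and 2238 bases for the 4438 floor genes.

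The comparison of PGCs with soma at 7 hpf asked whether these transcripts were shared evenly by both sorted pools before they fell. They were lower in PGCs more often than higher. Of 45 members, 8 passed the threshold (a Benjamini-Hochberg adjusted p below 0.05 in the edgeR quasi-likelihood test, with a log2 fold change of 1.5 or more in either direction), of which 7 were lower and 1 higher in PGCs. Among all 19885 genes tested, 1.83% were lower and 3.61% higher in PGCs. Among the 4438 floor genes, the nearer background, 3.56% were lower and 0.924% higher, while 15.6% of the members were lower. At an unadjusted p under 0.05, 20 members (44.4%) were lower and 1 (2.22%) higher, where 13.2% of all tested genes were lower and 13.5% higher. Here and below, shares at an unadjusted p were not counted among the floor genes, the nearer background.

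The median log2 fold change of the members was -0.95, and 39 of 45 (86.7%) were negative, against 74.3% of the floor genes and 47.3% of all tested genes. The median was -0.42 for the floor genes and 0 for all tested genes, so the scaling by TMM (trimmed mean of M-values) places abundant genes lower in PGCs at this stage. By plain CPM the medians were -0.51 for the members, 32 of them lower in PGCs, and 0.02 for the floor genes. The distance between members and floor genes was similar on both scales, and the sign of 7 members depended on whether CPM or TMM scaling was used. By library, PGCs lay below soma without overlap in 25 members (55.6%), above it in 7 (15.6%), and overlapped in 13. For the floor genes these shares were 30.4% below and 31% above.

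**Figure D3:**
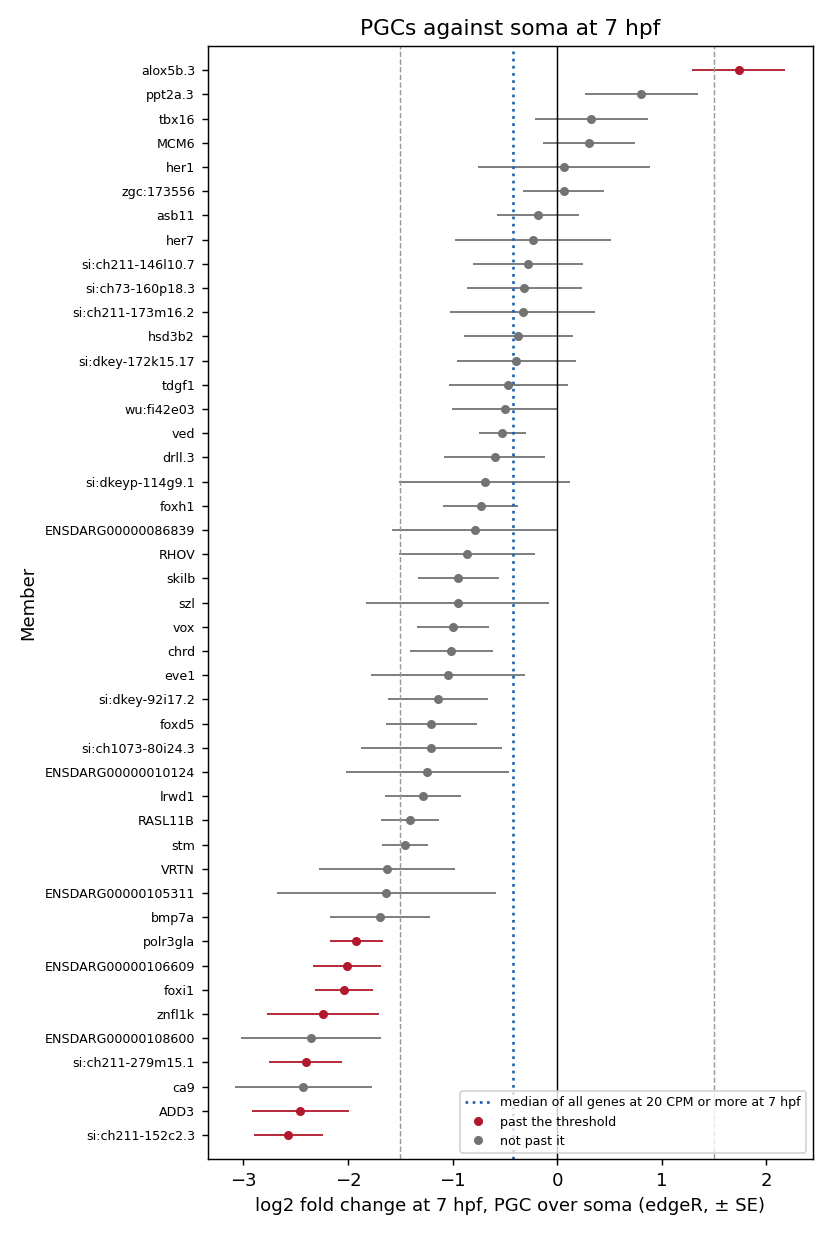
Log2 fold change of PGCs over soma at 7 hpf for each of the 45 members (edgeR, points with standard errors). Red marks the 8 members past the threshold, dashed lines stand at ±1.5, and the dotted line is the median of the 4438 floor genes at -0.42. Of the members, 39 lie left of 0.

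Of the 7, si:ch211-152c2.3, next to stm in abundance, lay furthest below soma in PGCs and measured 252 and 210.1 CPM in PGCs at 7 hpf and 1077 and 949.6 CPM in soma at 7 hpf. The log2 fold change came to -2.57 ± 0.33 (SE), with an adjusted p of 0.014 (edgeR quasi-likelihood test). ADD3 measured 201 and 115 CPM in PGCs at 7 hpf and 732 and 544 CPM in soma at 7 hpf, a log2 fold change of -2.45 ± 0.46. si:ch211-279m15.1 measured 55.1 and 44.6 CPM in PGCs at 7 hpf and 202 and 187 CPM in soma at 7 hpf, a log2 fold change of -2.40 ± 0.35. In each of these the soma libraries lay well above both PGC libraries.

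foxi1 measured 59.2 and 62.5 CPM in PGCs at 7 hpf and 171 and 197 CPM in soma at 7 hpf, a log2 fold change of -2.04 ± 0.28 with an adjusted p of 0.0143 (edgeR quasi-likelihood test). polr3gla measured 242 and 183 CPM in PGCs at 7 hpf and 631 and 553 CPM in soma at 7 hpf, a log2 fold change of -1.92 ± 0.25. znfl1k, of a large zinc finger family, measured 26.4 and 46.3 CPM in PGCs at 7 hpf and 80.0 and 173 CPM in soma at 7 hpf, a log2 fold change of -2.24 ± 0.53 with an adjusted p of 0.0386 (edgeR). Its soma libraries were uneven, and it kept its call in 7 of 15 alternatives, with an adjusted p between 2.9e-05 and 0.162. The seventh was the unnamed ENSDARG00000106609, with 86.7 and 71.5 CPM in PGCs at 7 hpf and 201 and 271 CPM in soma at 7 hpf. stm also had an adjusted p below 0.05, at 0.0148 (edgeR), but its log2 fold change of -1.45 ± 0.22 stayed short of 1.5.

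alox5b.3 was the one member higher in PGCs, with 510.3 and 222 CPM in PGCs at 7 hpf and 75.1 and 88.2 CPM in soma at 7 hpf. The fitted log2 fold change came to 1.74 ± 0.44 (SE), with an adjusted p of 0.0456 (edgeR quasi-likelihood test), and it kept its call in 5 of 15 alternatives, over which the adjusted p ran between 0.000237 and 0.249. It was among the calls lost on leaving out any 1 library of PGCs at either stage or of soma at 7 hpf. At 7 hpf 12 keratin and other genes of the enveloping layer, the outer epithelium of the embryo, summed to 17181 and 8513 CPM in PGCs and 979.8 and 3292 CPM in soma. By the threshold 2 of these 12, krt18a.1 and grhl3, were higher in PGCs at 7 hpf and 0 were lower. Among all tested genes 3.61% were higher and 1.83% lower. The part of the enveloping layer genes in the result was not tested.

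Each of the 8 calls was lost without the second PGC library at 7 hpf. The count was then 0, with adjusted p of 0.0506 to 0.103 for these 8 (edgeR), against 6 to 11 members without any other library. The fold changes stayed of similar size, with log2 values of -2.69 (znfl1k) to -1.74 (polr3gla) for the 7 lower members and 2.2 for alox5b.3 without that library. The replicates of PGCs at 7 hpf were unequal in the members, of which 33 of 45 were higher in the first library, against 49.3% of floor genes. In soma at 7 hpf 34 of 45 were higher in the first library, against 59.8% of floor genes. Of the lower calls, si:ch211-279m15.1, znfl1k and ENSDARG00000106609 had fractional expected counts in all 8 libraries, so they share reads with other genes and are uncertain. Fractional counts occurred in 11 members (24.4%) and in 8.9% of floor genes.

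**Figure D4:**
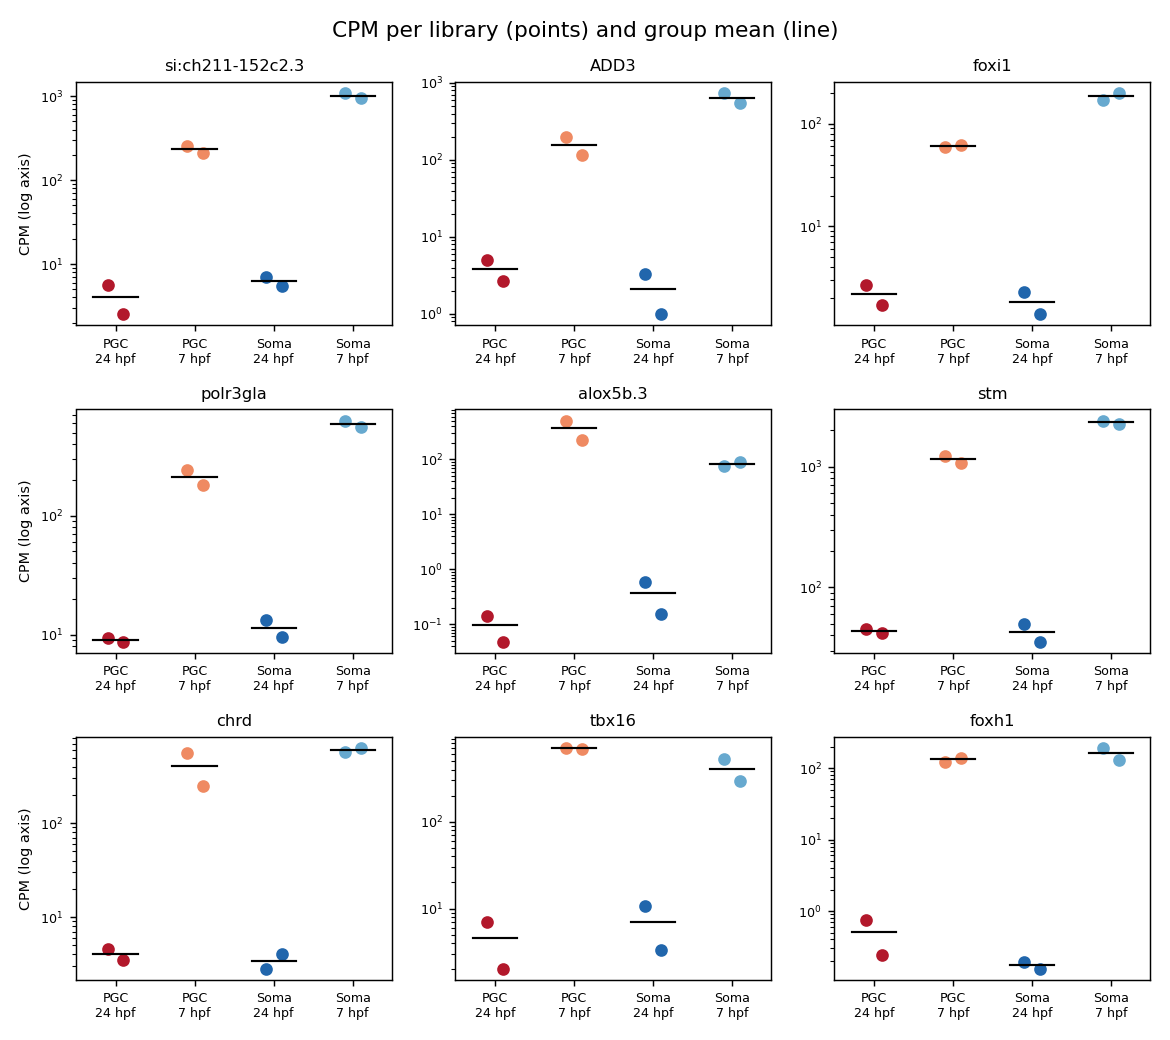
CPM on a log axis for 9 members in PGCs at 24 hpf, PGCs at 7 hpf, soma at 24 hpf and soma at 7 hpf, with a point per library and a line at the group mean. si:ch211-152c2.3, ADD3, foxi1, polr3gla and stm lie lower in PGCs than in soma at 7 hpf, alox5b.3 lies higher, and at 24 hpf all 9 lie far below their 7 hpf levels.

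At 24 hpf the comparison asked whether the remnants differed between PGCs and soma. By the edgeR quasi-likelihood test 0 members passed, where 0.0302% of all tested genes were higher in PGCs and 0% lower. At an unadjusted p under 0.05, 5 members (11.1%) were higher and 4 (8.89%) lower, where 1.97% of all tested genes were higher and 1.06% lower. DESeq2 called 1 and limma on log2(TPM + 1) called 0. The median log2 fold change of the members was -0.32, with 25 of 45 (55.6%) negative, against 66.8% of the floor genes. By library, PGCs lay above soma without overlap in 9 members (20%), below it in 5 (11.1%), and overlapped in 31. For the floor genes these shares were 6.85% above and 14.1% below. The median member had 45 and 37 counts in the PGC libraries and 44 and 28 in those of soma.

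MCM6 had the smallest adjusted p, 0.728 (edgeR), and was the member that DESeq2 called, with an adjusted p of 0.0368. It measured 3.75 and 2.13 CPM in PGCs and 0.576 and 0.57 CPM in soma at 24 hpf, a log2 fold change of 2.33 ± 0.55 (SE). At 7 hpf it measured 142 and 151 CPM in PGCs and 126 and 47.6 CPM in soma, where its libraries did not overlap but its adjusted p was 0.733 (edgeR). The unnamed ENSDARG00000105311 passed when the second soma library at 24 hpf was left out, for a count of 1, and was lower in PGCs. It had 0 and 0.216 CPM in PGCs and 5.73 and 0 CPM in soma at 24 hpf, so that the call then rested on a single soma library. The soma libraries of this stage also differed in their markers, as the muscle sums above show, and the part of such differences in the remnants was not tested.

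The interaction asked whether the fall was deeper in one cell type than in the other. The limits of the rule hold both falls at 16-fold or more, which narrows the range the interaction can take, and the same 7 hpf libraries enter it and the comparison above. By mean CPM 29 of 45 members fell further in soma. That share was not counted for the floor genes, whose median log2 ratios by CPM were -1.35 in PGCs and -1.15 in soma. In the edgeR fit 35 of 45 interactions (77.8%) were positive, meaning a smaller fall in PGCs, against 70.4% for floor genes. The median log2 value was 0.91, against 0.34 for floor genes. By the edgeR quasi-likelihood test 0 members passed, where 0% of all tested genes passed with a positive and 0.00503% with a negative interaction. At an unadjusted p under 0.05 there were 16 positive (35.6%) and 1 negative (2.22%), where 7.11% of all tested genes were positive and 7.95% negative. DESeq2 called 8, of which 7 were positive, and limma on log2(TPM + 1) called 0.

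foxi1 had the smallest adjusted p among the members, 0.117 (edgeR), with an interaction of 2.33 ± 0.41 (SE) on the log2 scale. It was 27.4-fold lower at 24 than at 7 hpf in PGCs and 99.4-fold lower in soma. ADD3 was 41.1-fold lower at 24 than at 7 hpf in PGCs and 301-fold lower in soma, an interaction of 3.38 ± 0.67 with an adjusted p of 0.133 (edgeR). In both, the levels at 24 hpf overlapped between PGCs and soma and those at 7 hpf did not. alox5b.3 was the negative one, at -3.50 ± 0.97 with an adjusted p of 0.178 (edgeR), and rested on 3 and 1 counts in PGCs at 24 hpf.

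Other genes of the same pathways, which missed the rule's limits or were left out by ID, were compared between the stages with the same fit. Of all tested genes, 6.94% were lower and 19.5% higher at 24 hpf in PGCs, and 9.89% were lower and 23.2% higher in soma. Among the floor genes 74.4% had a negative log2 fold change in PGCs and 79% in soma. The share of floor genes past the threshold between the stages was not counted. The lists overlap, as gsc is on both the Nodal and the Bmp list. Of 10 other Nodal pathway genes tested, 6 were lower at 24 hpf in PGCs and 7 in soma, and 0 were higher. Of 5 other Bmp and dorsoventral genes, 4 were lower in PGCs and 5 in soma. They included vent, a repressor related to vox and ved, whose log2 fold change of 24 over 7 hpf was -4.58 in PGCs (adjusted p = 0.0165) and -7.89 in soma (adjusted p = 0.00276, edgeR). Of 21 other mesendoderm and endoderm genes, 16 were lower in PGCs and 17 in soma.

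Among 19 other pluripotency and early neural or epidermal factors, 9 were lower at 24 hpf in PGCs and 11 in soma, and 1 was higher in PGCs. The lower ones include pou5f3 and nanog in both cell types. These met the limits of the rule and were left out by ID only, so their falls repeat the selection. At 7 hpf, 8 of these 19 were lower in PGCs than in soma and 1 was higher, where 1.83% of all tested genes were lower and 3.61% higher, and 3.56% and 0.924% of the floor genes. Among the members this list held foxi1, foxd5, her1 and her7, of which foxi1 was lower. The name of the list does not describe her1 and her7, which are given above under segmentation. Of 40 other maternal and oocyte genes 21 were lower and 4 higher at 24 hpf in PGCs, and 18 were lower and 3 higher in soma. Of 24 cell cycle genes, 13 were lower in PGCs and 16 in soma. stm was the only member on the maternal list, and 0 members were on the cell cycle, retinoic acid, enveloping layer or yolk syncytial layer lists. The lists are fixed sets of symbols and not complete. A place on the maternal list, or none, therefore does not show whether a member's transcripts were maternal.

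In the other lists calls between the stages went in both directions. Of 12 enveloping layer genes, 6 were lower and 3 higher at 24 hpf in PGCs, and 0 were lower and 4 higher in soma. Of 7 yolk syncytial layer genes, 1 was lower and 2 higher in PGCs, and 2 were lower and 2 higher in soma. Of 3 nuclear receptor and retinoic acid genes, 1 was lower and 1 higher in each cell type. On the log2 scale of 24 over 7 hpf, the tested genes as a whole had a median of 0.36 in PGCs and 0.46 in soma.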

How the data were processed

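The authors trimmed reads with Trim Galore, aligned them with STAR to the danRer10 build and estimated gene abundance with RSEM. They deposited 3 tables for the 8 libraries. The authors' expected counts are RSEM estimates per gene, fractional where reads are shared. The deposited TPM values divide these by effective length and scale each library to a common total. The deposited effective lengths are in bases, a signal-like value per gene and library. Strand use in counting is not given in the sources used here, so overlapping and antisense genes are uncertain.

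CPM was the expected count over its column sum. Counts were rounded and fitted in R 4.3.3 with edgeR 4.0.16 (filterByExpr, TMM, quasi-likelihood test, 4 group means over 8 libraries), following the study's thresholds of adjusted p under 0.05 and log2 fold change of 1.5. DESeq2 1.42.0 and limma 3.58.1, RLE scaling, no count filter, a replicate block, other limits of the rule and leaving out each library were alternatives. On simulated 7 hpf differences, 200 well-counted genes were given a log2 change of 3 up or down, with the same spread set for all genes. The edgeR step recovered 75% of them, with 6 false calls among genes left unchanged. DESeq2 recovered 88% with 37 false calls, and limma, run here on log2(CPM + 1), recovered 70% with 5. Smaller changes, near the limit of 1.5, and changes in low-count genes were not simulated. Standard errors are the log2 fold change over the root of the F statistic.

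Members and lists were chosen with earlier results of these data known. Of 34381 IDs 26790 were named through the reference name table, and 40 of the 45 members. Genes were named by abundance at 7 hpf, calls, remnants at 24 hpf, place at the rule's limits and list membership. Counting intervals and floors ignore PCR duplication and so cover counting error alone. Promoter motifs and sequences were not analysed here.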

Additional observations from a re-analysis of the deposited data

How the results depend on the processing

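The cause of each change here was not tested. A tally over 14 or 15 alternatives per gene covered the members with an adjusted p below 0.05 at 7 hpf (edgeR). It also covered MCM6 at 24 hpf and the interactions of foxi1, ADD3, alox5b.3 and a clone-named member. Among these values 0 changed direction, 179 stayed on the same side of the threshold, 12 gained a call and 30 lost one. Other members were not tallied, among them the 7 whose sign at 7 hpf depended on CPM or TMM scaling. At 7 hpf (8 members) the fit without a count filter called 13 and limma on log2(TPM + 0.1) called 1. Leaving out each library gave 0 to 11. At 24 hpf (0 members) no count filter gave 4, among them MCM6, and DESeq2 gave 1, with 0 to 1 on leaving out each library. The interaction (0 members) gave 17 without a count filter, 15 of them positive, and 8 with DESeq2, with 0 to 0 on leaving out each library. With a replicate block the counts were 8, 0 and 0, with znfl1k lost (adjusted p = 0.0501, edgeR) and another member gained. Replicate differences of the groups correlated at -0.009 to 0.199, and the main fit did not pair libraries by number. Such correlations cannot show whether PGC and soma libraries with the same number came from the same sort. For exon inclusion the study compared PGCs with soma in pairs at each stage.

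The rule gave 27 genes on TMM-scaled CPM, 22 on TPM (20 of them shared with the 45), 108 with a limit of 1/8, 23 with 1/32, 73 with a floor of 10 CPM, 26 with a floor of 50 CPM and 39 to 59 on leaving out each library. Members at 10 counts or fewer at 24 hpf were 5 in PGCs and 7 in soma, and at 0 counts 0 in PGCs and 1 in soma. The planned motif search was not run. With 2 libraries per group a fit without one of them assumes that the lone library varies like the others.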
